A study of Astyanax mexicanus with 12 samples.

Results

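The DEAD and DEAH box RNA helicases of the Astyanax mexicanus ovary were taken as every gene of the authors' scaled expression table whose symbol begins with ddx or dhx and a digit, leaving out ddx4. This gave 50 entries of the 14627 genes in that table, 34 named ddx and 16 named dhx. They carry 48 distinct symbols, because ddx18 and ddx5 each stand for 2 gene identifiers. The RefSeq gene table of the AstMex3_surface assembly holds 47 of the 48 symbols and lists ddx18 and ddx5 with 1 gene each. Every entry belongs to the family by its name. By function, however, ddx11 encodes an iron-sulphur DNA helicase that acts in sister chromatid cohesion, not an RNA helicase of the DEAD box kind.

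These enzymes use ATP to unwind short RNA duplexes or to strip proteins from RNA. DEAD box members pry a duplex open locally and act as clamps on RNA, while DEAH box members travel along a strand and are often switched on by partner proteins with a G-patch, a glycine-rich motif. They work at most steps of an RNA's life: splicing, export from the nucleus, ribosome assembly, initiation of translation, storage and decay. In an ovary much of the RNA lies in growing oocytes, which stockpile ribosomes and silenced maternal messenger RNA for the embryo.

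The study sequenced bulk RNA of right ovaries from wild type females of the Mexican tetra. The species has sighted river populations, here called surface fish, and blind cave populations, here cavefish of the Tinaja population. Each population gave 3 control libraries, labelled as non-treated, and 3 starved libraries, all from females aged about 660 days after fertilization. The labels do not say how long the starvation lasted or whether a library holds the ovary of 1 fish. P-values therefore set group differences against the spread of libraries within the groups, which may not be the spread between single fish.

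Reads counted on genes numbered 5949155 to 10198881 per library, and the helicases took 0.744% to 0.799% of them. Levels are given as CPM, reads scaled to a common library size with the trimmed mean of M values (TMM), with the 3 libraries of a group in the order of their replicate numbers. CPM is not divided by gene length, so levels are compared between samples and not between genes. In a library 3 reads equal 0.323 to 0.492 CPM. Differences are on the log2 scale, written as value ± standard error (SE), from edgeR's quasi-likelihood test over all 14627 genes, and a gene was called when its Benjamini-Hochberg adjusted p was under 0.05. The median coefficient of variation of the helicases among the 3 libraries of a group was 8.60%, against 12.9% over 14485 genes. Genes with a group at 0 have no such value and are left out. The genes were not matched for read depth, so the gap cannot be read as a trait of the family. Among the helicases it ran from 2.36% for dhx15 to 38.6% for dhx58 and 78.2% for the second ddx18 entry, the entries with few reads.

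The tissue label was checked on markers. The 11 oocyte markers found, of 16 symbols listed, were all read, among them gdf9, bmp15, buc, zar1 and the egg coat genes zp2l1, zp2l2 and zp3c. Their summed level was 5354 to 6200 CPM in surface control, 7447 to 8599 in surface starved, 5362 to 6844 in Tinaja control and 5555 to 6242 in Tinaja starved libraries. All 11 granulosa cell symbols were found, and their sum was 25.5 to 28.8, 17.2 to 23.3, 29.1 to 46.0 and 27.9 to 46.5 CPM in the same order. The defining markers of oocytes were therefore present in every library. In bulk RNA, a change in the number of cells of a type and a change in RNA per cell cannot be told apart.

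Between the populations the share of helicases called lay near that of all genes. In control fish 18 of the 50 entries were called, 10 higher and 8 lower in Tinaja cavefish, where 32.4% of all genes were called (16% higher, 16.4% lower). In starved fish 18 were called as well, 9 higher and 9 lower, where 40.3% of all genes were called (20.3% higher, 20% lower). Either count is 36% of the entries, close to the background share. The median log2 difference of the 50 entries was 0.07 in control and 0.09 in starved fish, beside 0.00 and 0.01 over all genes, so the family did not lie to 1 side. The libraries of the populations did not overlap for 22 entries in control fish (47% of all genes) and for 28 in starved fish (52.5% of all genes). Control and starved fish are separate libraries, and 11 entries were called in both comparisons, 61.1% of either set of 18, each with the same sign. The second ddx18 entry, counted among the higher ones in both, passed the filter on low counts only through its Tinaja libraries, so its calls support nothing here. Over all genes, 3293 were called in both, and 3286 of these had the same sign, so the shared sign is no trait of the family. The 3293 are 69.5% of those called in control and 55.9% of those called in starved fish. The 11 were dhx38, ddx20, dhx15, ddx19b, dhx36, DDX31 and DHX57, all lower in Tinaja cavefish, and dhx37, DHX30, ddx11 and the second ddx18 entry, all higher. Another 25 entries were called in neither. Markers of cell types differed in the same comparisons. In starved fish 8 of the 11 oocyte markers were called lower and 4 of the 8 granulosa entries tested called higher in Tinaja ovaries. In control fish 1 oocyte marker was called higher and 1 lower, and 2 granulosa entries higher. The granulosa entry nr5a2 was not called. It averaged 11.2 and 13.3 CPM in surface control and starved libraries, against 8.65 and 9.38 in those of Tinaja cavefish. Of the other lists, 3 stroma, 3 macrophage, 2 smooth muscle and 1 theca entries were called higher and the red blood cell entry lower in starved Tinaja ovaries. In control Tinaja ovaries 1 theca, 1 macrophage and 1 smooth muscle entry were called higher. Some called entries passed the filter on low counts only with their Tinaja libraries, so their calls support nothing here. These were the theca entry cyp17a1 (0.898 and 0.162 CPM on average in surface control and starved libraries), the granulosa entry foxl2b (0.918 and 0.288) and an MFAP4 entry of the macrophage list (0.0402 and 0.0453). The part of the cell type markers in the helicase differences was not tested.

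**Figure D1:**
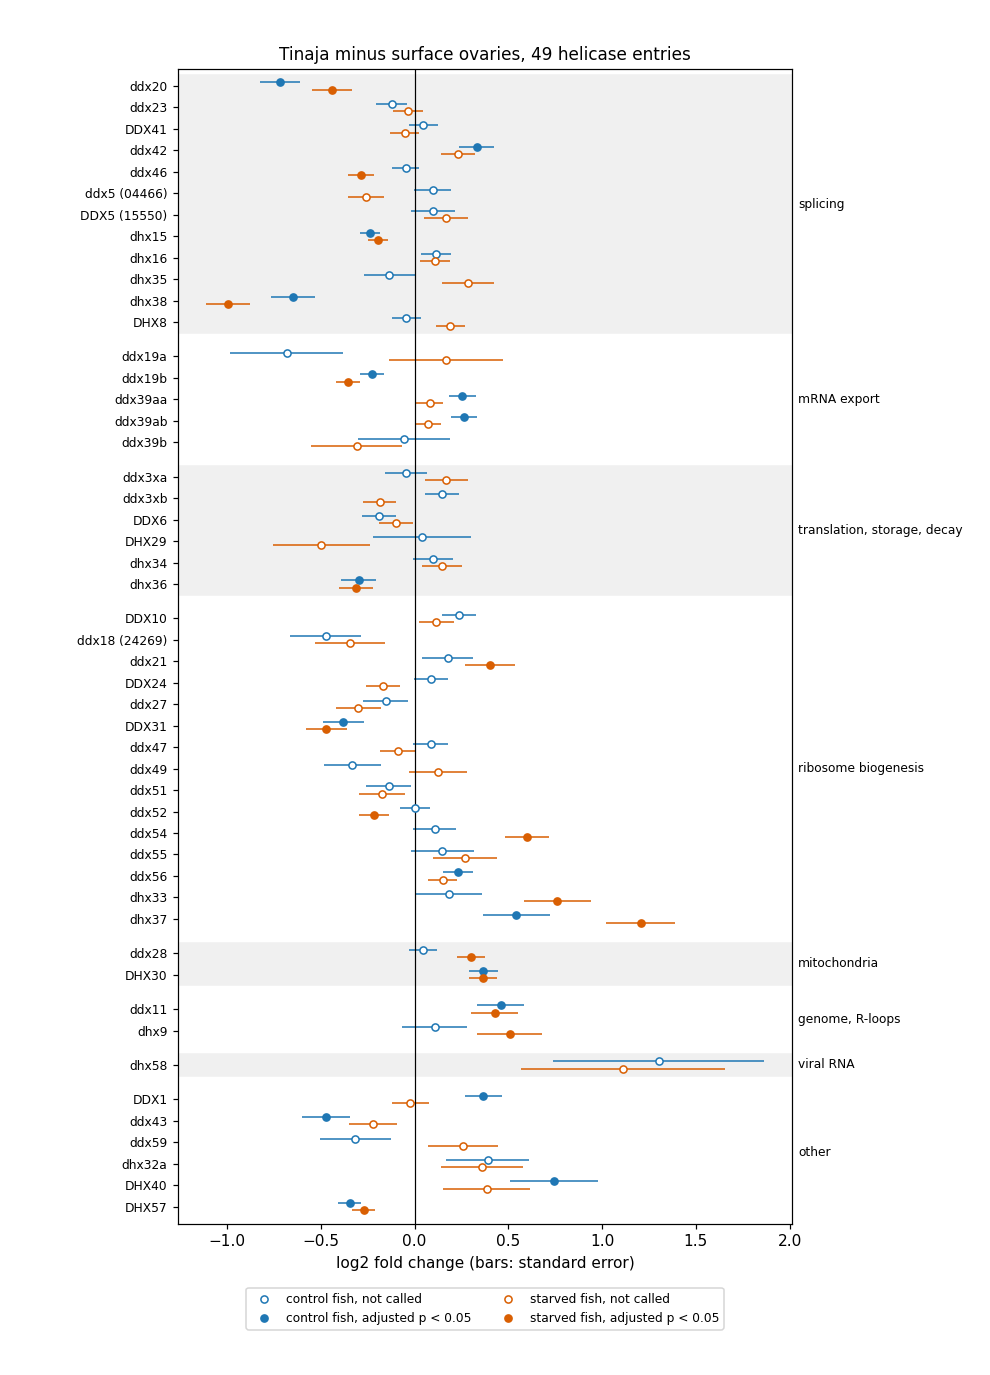
Log2 difference between Tinaja and surface ovaries (x axis) for 49 helicase entries (rows, grouped by role), in control fish (blue) and starved fish (orange), with the SE as bars and filled points where the adjusted p was under 0.05. The lowest values are those of dhx38 in starved and ddx20 in control fish, at -0.99 and -0.72, and the highest called value is that of dhx37 in starved fish, at 1.20. The second ddx18 entry is not drawn.

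Starvation moved few members past the threshold. In surface fish 1 of 50 was called, ddx54, which fell, where 3.19% of all genes were called, 1.74% higher and 1.45% lower. The count over all genes rests on single libraries: it was 0.179% without surface control 3 and 5.74% without Tinaja control 3. At an unadjusted p under 0.05 there were 15 entries, 7 with a positive and 8 with a negative value, against 22.5% of all genes. Control and starved libraries of surface fish did not overlap for 15 entries, against 28.5% of all genes. The median log2 difference of the family was 0.03, beside -0.01 over all genes. DESeq2 called 9 of the 49 members to which it gave an adjusted p in surface fish (18.4%), 6 higher and 3 lower. It called 8.89% of all 14627 genes, a share that also counts genes without an adjusted p, so these shares have unlike bases. In the same comparison 4 of the 11 oocyte markers were called higher and 1 of the 8 granulosa entries lower, and their part in the helicase values was not tested.

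In Tinaja cavefish 0 of the 50 entries were called for starvation by edgeR, DESeq2 or voom, where edgeR called 0.0205% of all genes. At an unadjusted p under 0.05 there were 2, ddx20 and DHX8, against 3.95% of all genes. The log2 values ran from -0.23 for ddx55 to 0.41 for ddx20, and control and starved libraries did not overlap for 6 entries, against 8.62% of all genes. The difference between the populations' responses to starvation was tested in the same fit. By edgeR, DESeq2 and voom 0 entries were called there, where edgeR called 0.0684% of all genes, and 9 entries had an unadjusted p under 0.05, against 15.5% of all genes. So a call in surface fish and none in Tinaja cavefish does not show that the responses differ.

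**Figure D2:**
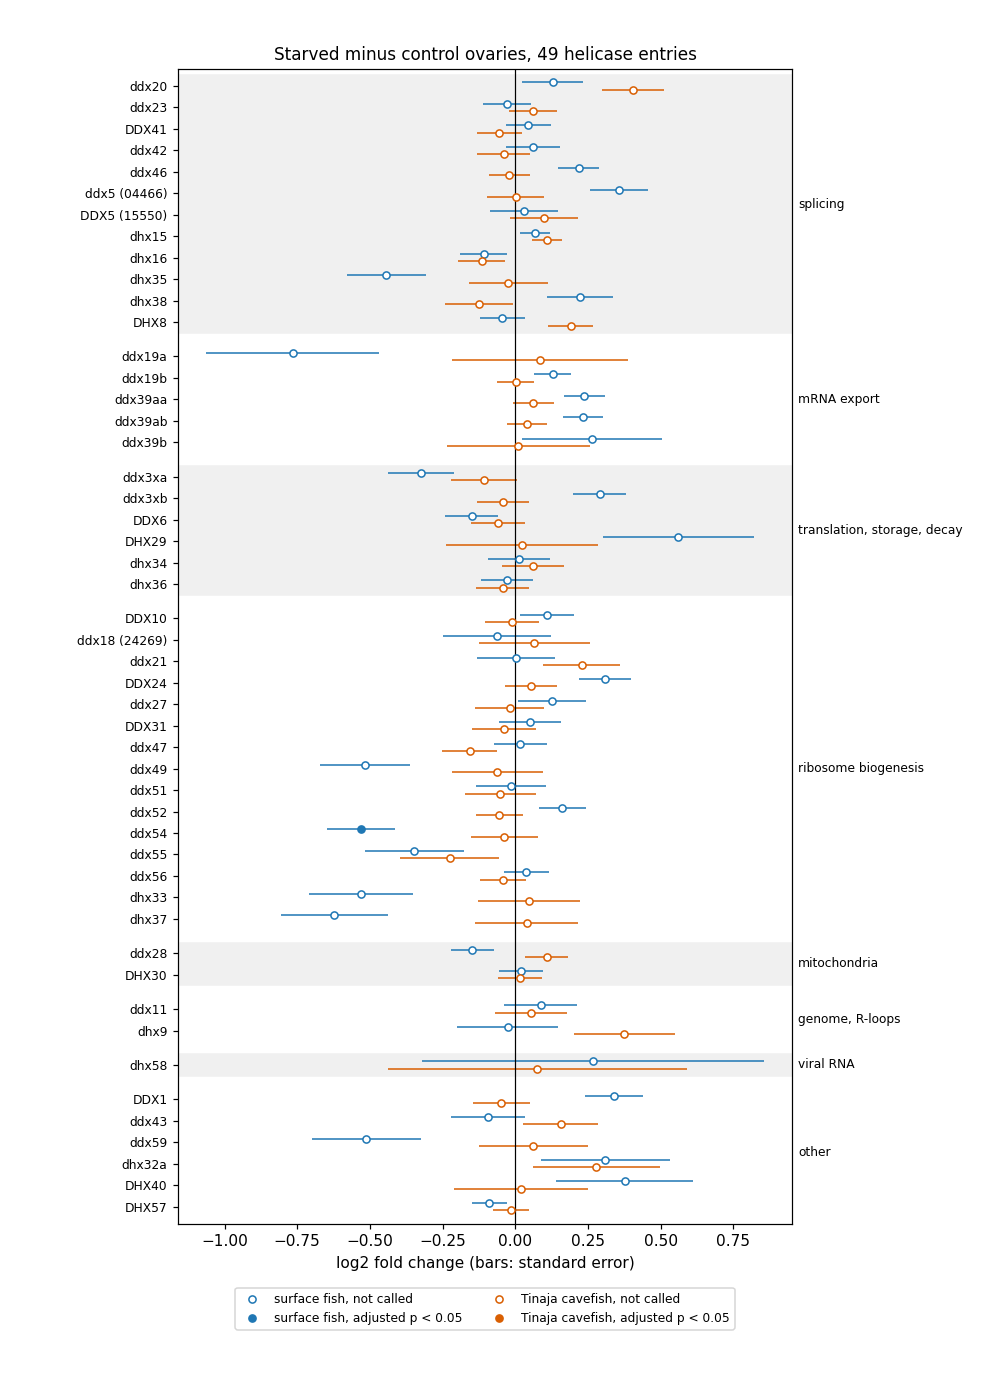
Log2 difference between starved and control ovaries (x axis) for the same 49 entries, in surface fish (blue) and Tinaja cavefish (orange), with the SE as bars and filled points where the adjusted p was under 0.05. The sole filled point is ddx54 in surface fish, at -0.53, and the drawn values of surface fish lie between -0.77 and 0.56, those of Tinaja cavefish between -0.23 and 0.41.

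Of the 12 splicing entries, 1 was called higher and 3 lower in Tinaja than in surface control ovaries, and 4 were called lower and 0 higher in starved fish. Either count is 33.3% of the group, beside 32.4% and 40.3% of all genes. The gene dhx38 encodes the orthologue of yeast Prp16, which remodels the spliceosome between its catalytic steps. Its level was 167, 159 and 163 CPM in surface control and 186, 189 and 195 in surface starved ovaries. In Tinaja ovaries it was 97.8, 112 and 102 CPM in control and 109, 104 and 72.9 in starved fish. All 6 Tinaja libraries lay below all 6 surface libraries. The log2 difference was -0.65 ± 0.12 in control fish (adjusted p = 0.00130) and -0.99 ± 0.12 in starved fish (adjusted p = 5.94e-05).

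The gene ddx20 encodes Gemin3, a helicase of the SMN complex that loads Sm proteins onto small nuclear RNAs. It was read at 184, 178 and 174 CPM in surface control and 183, 205 and 198 in surface starved ovaries, against 99.0, 128 and 98.8 in Tinaja control and 161, 144 and 126 in Tinaja starved ovaries. Again no Tinaja library reached the lowest surface library. The log2 difference was -0.72 ± 0.11 (adjusted p = 0.000368) in control fish and -0.44 ± 0.11 (adjusted p = 0.00622) in starved fish. Within Tinaja cavefish starved minus control gave 0.41 ± 0.11 (adjusted p = 0.904), although the unadjusted p was 0.00256, the smallest of the family there, and 2 of the 3 starved libraries lay above all controls. The test of the response difference gave 0.28 ± 0.15 (adjusted p = 0.403).

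The gene dhx15 encodes the orthologue of yeast Prp43, which takes spent spliceosomes apart and also acts on pre-ribosomes. It was the steadiest entry, at 199, 194 and 195 CPM in surface control and 197, 208 and 210.3 in surface starved ovaries, against 167, 167 and 165 in Tinaja control and 177, 187 and 174 in Tinaja starved ovaries. The gap was small but larger than the spread, with log2 differences of -0.24 ± 0.05 (adjusted p = 0.00445) in control and -0.20 ± 0.05 (adjusted p = 0.0103) in starved fish. The calls on dhx38, ddx20 and dhx15 between the populations held under all 20 alternatives. Here and below, 1 of the 20 uses reads worked back from the scaled table. They equal the deposited counts, so that alternative could change no call.

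The gene ddx46 encodes the orthologue of yeast Prp5, which helps U2 snRNP bind the branch point. It was lower in Tinaja than in surface ovaries of starved fish, with 105, 117 and 99.4 against 129, 128 and 135 CPM and a log2 difference of -0.28 ± 0.07 (adjusted p = 0.00737). In control fish the groups overlapped, at 108, 109 and 109.7 in Tinaja and 119.6, 108 and 109.8 CPM in surface ovaries, with -0.05 ± 0.07 (adjusted p = 0.645). Starved minus control in surface fish was 0.22 ± 0.07 (adjusted p = 0.0954), with all starved libraries above all controls. That comparison and the one between starved fish share the surface starved libraries.

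The sole splicing entry called higher in Tinaja cavefish was ddx42, whose product associates with U2 snRNP. It was read at 153, 133 and 129 against 122, 101 and 107 CPM in control fish, with a log2 difference of 0.33 ± 0.09 (adjusted p = 0.0165). The call was lost without surface control 2, surface control 3 or Tinaja control 1 (adjusted p = 0.0702, 0.0557 and 0.0707, in that order). In starved fish the value was 0.23 ± 0.09 (adjusted p = 0.0639), and it was called without surface control 1 (adjusted p = 0.0494) and with upper-quartile factors and only the groups compared (adjusted p = 0.0448 and 0.0420, in that order).

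The main ddx5 entry, for a helicase that serves splicing and transcription, was read at 1558, 1279 and 1357 CPM in surface control, 1873, 1682 and 1816 in surface starved, 1316, 1476 and 1692 in Tinaja control and 1396, 1532 and 1560.5 in Tinaja starved ovaries. All surface starved libraries lay above all surface controls, while the Tinaja groups overlapped. Starved minus control was 0.36 ± 0.10 (adjusted p = 0.0623) in surface fish, and it was called without surface control 1, Tinaja control 1 or Tinaja control 3 (adjusted p = 0.0435, 0.0499 and 0.0341, in that order) and with DESeq2 (adjusted p = 0.00638). Tinaja minus surface in starved fish was -0.26 ± 0.10 (adjusted p = 0.0522), and it was called without surface control 1, surface control 2, Tinaja control 1, Tinaja control 3 or surface starved 2 (adjusted p = 0.0401, 0.0497, 0.0321, 0.0252 and 0.049969, in that order) and with no low-count filter, DESeq2, voom and only the groups compared (adjusted p = 0.0326, 0.0247, 0.0439 and 0.0246, in that order). The test of the response difference gave -0.36 ± 0.14 (adjusted p = 0.264).

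Among the remaining splicing entries, dhx35 gave -0.44 ± 0.14 (adjusted p = 0.0813) for starvation in surface fish, with 37.6, 41.4 and 30.6 CPM in control and 24.7, 26.2 and 29.5 in starved ovaries. The gene DHX8, for the orthologue of yeast Prp22 that releases the spliced message, gave 0.19 ± 0.08 (adjusted p = 1) for starvation in Tinaja cavefish, at 265, 269 and 246 CPM in control and 277, 307 and 307 in starved ovaries. Its Tinaja libraries did not overlap, but the value was not called. Between the starved populations DHX8 gave 0.19 ± 0.08 (adjusted p = 0.0671), and it was called without surface control 1 (adjusted p = 0.0371) and with upper-quartile factors and only the groups compared (adjusted p = 0.0360 and 0.0411, in that order). The genes ddx23 and dhx16, for the orthologues of yeast Prp28 and Prp2, and DDX41 were called in none of the 5 comparisons. For these 3 the log2 difference between the populations lay between -0.12 and 0.11.

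**Figure D3:**
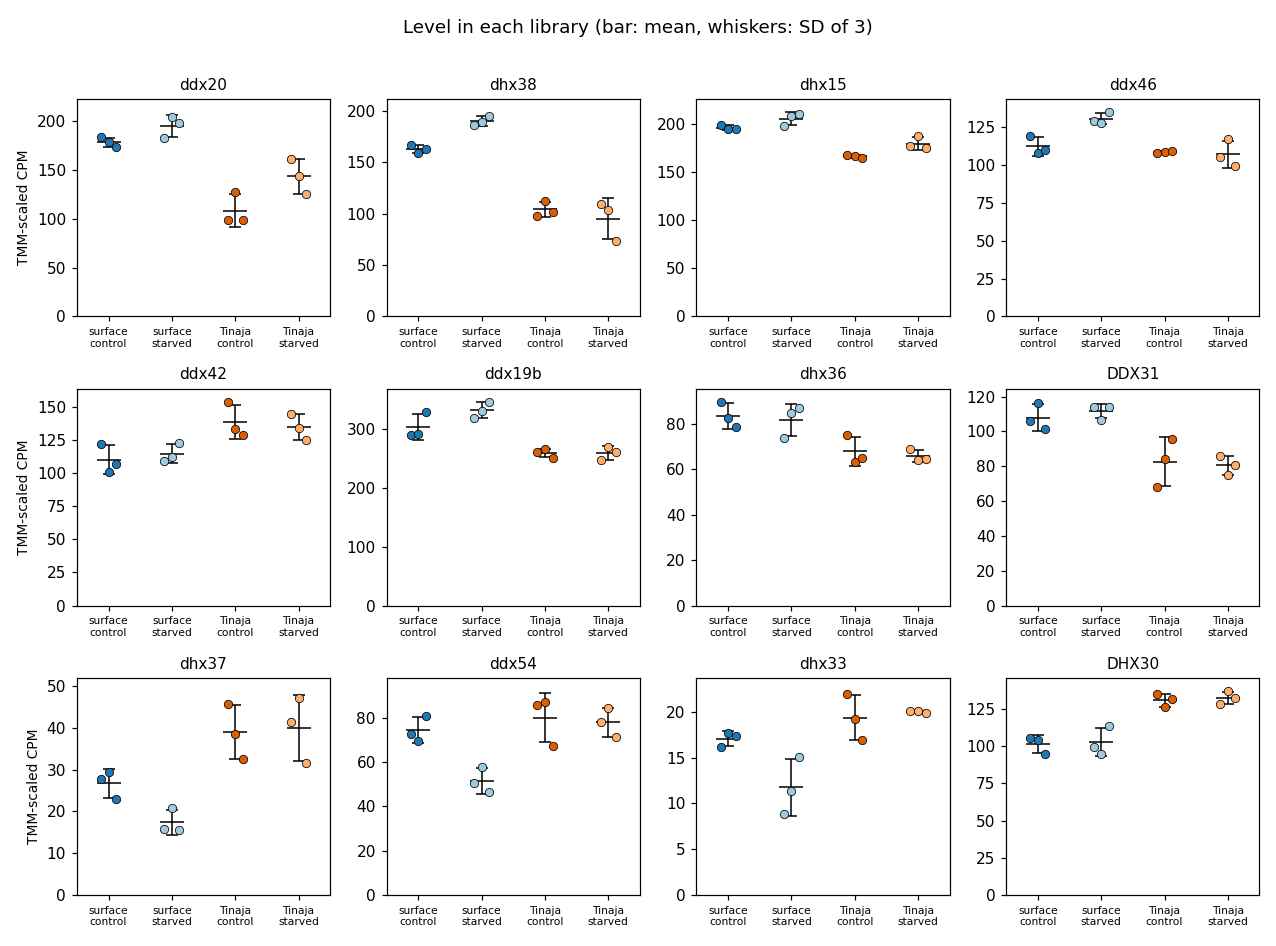
Level of 12 helicases in each of the 12 libraries, in TMM-scaled CPM (y axis, from 0), with 1 point per library, the mean as a bar and the SD of 3 libraries as whiskers. In ddx20, dhx38, dhx15, ddx19b and DDX31 every Tinaja library lies below every surface library. In DHX30 and dhx37 every Tinaja library lies above every surface library. The surface starved group holds the lowest mean in ddx54, dhx33 and dhx37.

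Of the 5 entries for mRNA export, 2 were called higher and 1 lower in Tinaja control ovaries, and 1 was called lower in starved fish, 60% and 20% of the group beside 32.4% and 40.3% of all genes. The gene ddx19b encodes a helicase that releases proteins from messages as they leave the nuclear pore. Its level was 289, 291 and 328 CPM in surface control and 318, 329 and 345 in surface starved ovaries, and 260.4, 265 and 250.5 in Tinaja control and 247, 269 and 261 in Tinaja starved ovaries. The 6 Tinaja libraries lay below the 6 surface libraries. The log2 difference was -0.23 ± 0.06 (adjusted p = 0.0170) in control and -0.35 ± 0.06 (adjusted p = 0.00108) in starved fish. In control fish the call was lost without surface control 3 or Tinaja control 3 (adjusted p = 0.0723 and 0.0507, in that order). Its copy ddx19a made up 1.02% to 2.54% of the summed reads of both and was read at 6.15, 7.60 and 6.44 CPM in surface control and 4.07, 4.02 and 3.77 in surface starved ovaries. Those groups did not overlap, yet the log2 difference of -0.77 ± 0.30 (adjusted p = 0.152) was not called.

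The copies ddx39aa and ddx39ab encode UAP56-related helicases of the TREX complex, which couples splicing to export. They ran in parallel: ddx39aa held 37.6% to 39.5% of their summed reads in all 12 libraries. In control fish both were higher in Tinaja ovaries, ddx39aa with 377, 405 and 417 against 325, 327 and 352 CPM (0.25 ± 0.07, adjusted p = 0.0160) and ddx39ab with 591, 645 and 691 against 521, 520.1 and 563 CPM (0.26 ± 0.07, adjusted p = 0.0112). The call on ddx39aa was lost without surface control 1, surface control 2, Tinaja control 2 or Tinaja control 3 (adjusted p = 0.0551, 0.0579, 0.0502 and 0.0544, in that order), and that on ddx39ab held under all 20 alternatives. In surface fish all starved libraries of both copies lay above all controls, at 378, 369 and 436 CPM for ddx39aa and 614, 603 and 668 CPM for ddx39ab. The values of 0.24 ± 0.07 (adjusted p = 0.0756) for ddx39aa and 0.23 ± 0.07 (adjusted p = 0.0732) for ddx39ab were not called. DESeq2 called ddx39aa (adjusted p = 0.0194), and ddx39ab was called without Tinaja control 3 (adjusted p = 0.0466) and with DESeq2 (adjusted p = 0.0109). In starved fish the populations overlapped for ddx39aa and ddx39ab, with 0.08 ± 0.07 (adjusted p = 0.384) and 0.07 ± 0.07 (adjusted p = 0.414). The entry ddx39b was called in none of the 5 comparisons, at 5.43 to 10.6 CPM over the libraries.

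Among the 6 entries for translation and for storage or decay of messages, dhx36 alone was called between the populations, 16.7% of the group in either state beside 32.4% and 40.3% of all genes. It encodes a helicase that opens G-quadruplexes, stacked folds of guanine-rich RNA and DNA. Its level was 89.6, 82.4 and 78.4 CPM in surface control and 73.7, 84.6 and 87.0 in surface starved ovaries, against 75.2, 63.3 and 65.1 in Tinaja control and 68.8, 64.0 and 64.7 in Tinaja starved ovaries. The groups of either feeding state did not overlap. The log2 difference was -0.30 ± 0.09 (adjusted p = 0.0254) in control and -0.31 ± 0.09 (adjusted p = 0.0166) in starved fish. The call in control fish was lost without surface control 1, surface control 2, Tinaja control 2 or Tinaja control 3 (adjusted p = 0.0883, 0.0504, 0.0905 and 0.0762, in that order) and with only the groups compared (adjusted p = 0.0517). In starved fish it was lost without surface starved 3 or Tinaja starved 2 (adjusted p = 0.0593 and 0.0502, in that order).

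The copies of ddx3x, whose product helps ribosomes start on structured messages, had starvation values of opposite sign in surface fish, neither of them called. The minor copy ddx3xa, with 3.31% to 6.47% of their summed reads, was read at 81.5, 90.8 and 73.6 CPM in surface control and 63.1, 74.4 and 58.9 in surface starved ovaries (-0.32 ± 0.11, adjusted p = 0.116). The major copy ddx3xb was read at 1404, 1318 and 1308 and 1683, 1527 and 1719 CPM in the same groups (0.29 ± 0.09, adjusted p = 0.0842). The groups overlapped for ddx3xa and did not for ddx3xb. For ddx3xb starvation in surface fish was called without Tinaja control 3 (adjusted p = 0.0260) and with DESeq2 (adjusted p = 0.0171), and the population difference in starved fish, -0.19 ± 0.09 (adjusted p = 0.116), was called without Tinaja control 3 (adjusted p = 0.0281). In Tinaja cavefish ddx3xb was read at 1322, 1417 and 1721 CPM in control and 1389, 1450.3 and 1490.1 in starved ovaries, and its response difference was -0.33 ± 0.13 (adjusted p = 0.255).

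The gene DDX6 encodes a helicase that represses messages in storage granules of oocytes and brings them to decay in other cells. It was read at 93.1, 114 and 96.8 CPM in surface control, 89.6, 101 and 84.0 in surface starved, 91.2, 92.3 and 83.4 in Tinaja control and 87.8, 83.9 and 84.3 in Tinaja starved ovaries. These groups overlapped, apart from the control fish, where all Tinaja libraries lay below all surface libraries, and DDX6 was called in none of the 5 comparisons. The scanning helicase DHX29 was the loosest of this group, with 82.4, 103 and 43.4 CPM among surface starved ovaries and 0.56 ± 0.26 (adjusted p = 0.230) for starvation in surface fish. It was called there without surface starved 3 (adjusted p = 0.0426), and in the same way between the starved populations, where its value was -0.50 ± 0.26 (adjusted p = 0.148), it was called without surface starved 3 (adjusted p = 0.00339). The gene dhx34, which acts in nonsense-mediated decay, gave 0.01 ± 0.11 for starvation in surface fish and 0.10 ± 0.11 between the populations in control fish.

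Ribosome assembly is the largest group, with 16 entries. Here 3 were called higher and 1 lower in Tinaja than in surface control ovaries, and 5 higher and 2 lower in starved fish, the second ddx18 entry among the higher ones in both. These are 25% and 43.8% of the group, beside 32.4% and 40.3% of all genes. The sole starvation call of the family, ddx54, belongs to this group. Its product acts in the nucleolus in assembly of the large subunit. Its level was 72.7, 69.7 and 80.9 CPM in surface control and 50.4, 58.0 and 46.3 in surface starved ovaries, so that every starved library lay below every control. In Tinaja ovaries it was 85.6, 87.2 and 67.5 CPM in control and 78.2, 84.4 and 71.4 in starved fish, and these overlapped. Starved minus control was -0.53 ± 0.12 (adjusted p = 0.0389) in surface fish and -0.04 ± 0.12 (adjusted p = 1) in Tinaja cavefish, and the test of the response difference gave 0.49 ± 0.16 (adjusted p = 0.210). The call in surface fish was lost without surface control 2, surface control 3, surface starved 1, surface starved 3, Tinaja starved 1 or Tinaja starved 3 (adjusted p = 0.106, 0.109, 0.0806, 0.112, 0.0543 and 0.0534, in that order) and with only the groups compared (adjusted p = 0.0557). Between the populations ddx54 was higher in starved Tinaja than in starved surface ovaries, with 0.60 ± 0.12 (adjusted p = 0.00182), a comparison that shares the surface starved libraries, and not called in control fish, with 0.11 ± 0.12 (adjusted p = 0.514).

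The gene dhx37, whose yeast orthologue Dhr1 frees U3 snoRNA from the small subunit precursor, was read at 27.9, 29.4 and 22.9 CPM in surface control and 15.8, 20.9 and 15.5 in surface starved ovaries. In Tinaja ovaries it was 45.6, 38.6 and 32.6 CPM in control and 41.3, 47.0 and 31.5 in starved fish. All Tinaja libraries lay above all surface libraries. The population difference was 0.54 ± 0.18 (adjusted p = 0.0353) in control fish, where it was lost without surface control 1, surface control 3, Tinaja control 1 or Tinaja control 2 (adjusted p = 0.0615, 0.125, 0.132 and 0.0739, in that order). In starved fish it was 1.20 ± 0.18 (adjusted p = 0.000342) and held under all 20 alternatives. Starved minus control in surface fish was -0.62 ± 0.18 (adjusted p = 0.0739), with groups that did not overlap, and DESeq2 called it (adjusted p = 0.0360). The response difference was 0.66 ± 0.26 (adjusted p = 0.257).

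The gene dhx33, for a nucleolar helicase linked to synthesis of ribosomal RNA, was read at 16.2, 17.6 and 17.4 CPM in surface control and 8.83, 11.4 and 15.1 in surface starved ovaries, and at 21.9, 19.2 and 16.98 and 20.1, 20.1 and 19.9 in Tinaja control and starved ovaries. It was higher in Tinaja than in surface ovaries of starved fish (0.76 ± 0.18, adjusted p = 0.00553), under all 20 alternatives. In control fish the groups overlapped (0.18 ± 0.18, adjusted p = 0.458). Starved minus control in surface fish was -0.53 ± 0.18 (adjusted p = 0.106), and the response difference was 0.58 ± 0.25 (adjusted p = 0.301). The small subunit factor ddx49 gave -0.52 ± 0.15 (adjusted p = 0.0749) for starvation in surface fish, with 33.2, 38.1 and 45.0 CPM in control and 33.4, 25.6 and 22.3 in starved ovaries, which overlapped, and DESeq2 called it (adjusted p = 0.0408).

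The large subunit factor DDX24 had the opposite sign. It was read at 133, 136 and 126 CPM in surface control and 168, 171 and 152 in surface starved ovaries, with no overlap and 0.31 ± 0.09 (adjusted p = 0.0727). It was called without Tinaja control 3 (adjusted p = 0.0443) and with DESeq2 (adjusted p = 0.0268). In Tinaja cavefish its starvation value was 0.05 ± 0.09.

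The large subunit factor DDX31 was lower in Tinaja ovaries in both feeding states. Its level was 106, 116 and 101 CPM in surface control and 114, 107 and 114 in surface starved ovaries, against 68.0, 84.4 and 95.9 in Tinaja control and 85.8, 75.0 and 80.9 in Tinaja starved ovaries. The groups did not overlap, and the log2 difference was -0.38 ± 0.11 (adjusted p = 0.0184) in control and -0.47 ± 0.11 (adjusted p = 0.00495) in starved fish. In control fish the call was lost without surface control 2 or Tinaja control 1 (adjusted p = 0.0699 and 0.0591, in that order) and with only the groups compared (adjusted p = 0.0544). The gene ddx56, also for a large subunit factor, was higher in Tinaja control ovaries, with 99.1, 109 and 117 against 88.7, 100.0 and 88.7 CPM and 0.23 ± 0.08 (adjusted p = 0.0397). These groups overlapped, and the call was lost without surface control 1, surface control 3, Tinaja control 2, Tinaja control 3, surface starved 2, Tinaja starved 1 or Tinaja starved 3 (adjusted p = 0.115, 0.131, 0.0948, 0.157, 0.0509, 0.0530 and 0.0529, in that order) and with no low-count filter and only the groups compared (adjusted p = 0.1001 and 0.0777, in that order).

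The gene ddx21, for a nucleolar helicase that links ribosomal RNA synthesis and processing, was higher in Tinaja starved ovaries at 109, 134 and 134 CPM than in surface starved ovaries at 83.4, 98.1 and 103 CPM (0.40 ± 0.13, adjusted p = 0.0311). The call was lost without surface starved 1, surface starved 2, Tinaja starved 2 or Tinaja starved 3 (adjusted p = 0.113, 0.0572, 0.0949 and 0.0998, in that order). In control fish ddx21 gave 0.18 ± 0.13 (adjusted p = 0.342). The small subunit factor ddx52 was lower in Tinaja starved ovaries, at 55.8, 52.7 and 52.3 against 64.2, 63.2 and 59.8 CPM (-0.22 ± 0.08, adjusted p = 0.0465). That call was lost without surface control 2, surface control 3, surface starved 1, surface starved 2, surface starved 3, Tinaja starved 1, Tinaja starved 2 or Tinaja starved 3 (adjusted p = 0.0539, 0.0526, 0.115, 0.0999, 0.0501, 0.0577, 0.106 and 0.117, in that order) and with upper-quartile factors, no low-count filter, DESeq2, voom and only the groups compared (adjusted p = 0.0769, 0.0713, 0.0691, 0.0508 and 0.0798, in that order).

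The remaining factors of ribosome assembly were called in none of the 5 comparisons: DDX10 and ddx47 of the small subunit and ddx27, ddx51 and ddx55 of the large subunit. For DDX10 the populations did not overlap in control fish, at 81.9, 73.0 and 75.0 CPM in Tinaja and 62.1, 60.7 and 72.4 in surface ovaries, with 0.24 ± 0.09 (adjusted p = 0.0668). It was called without surface control 3 (adjusted p = 0.0305) and with upper-quartile factors (adjusted p = 0.0396). For ddx27 the value in starved fish was -0.30 ± 0.12 (adjusted p = 0.0611), with no overlap between Tinaja ovaries at 92.2, 111 and 102 CPM and surface ovaries at 118, 137 and 119.7 CPM. It was called without surface control 1 or surface control 3 (adjusted p = 0.0168 and 0.0447, in that order) and with no low-count filter and only the groups compared (adjusted p = 0.0453 and 0.0415, in that order). In control fish ddx27 gave -0.15 ± 0.12 (adjusted p = 0.347), and it was called without surface control 1 (adjusted p = 0.0443). The other 3 lay between -0.17 and 0.27 in log2 difference between the populations.

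The symbol ddx18 stands for a factor of the large subunit, and its second entry had the largest difference of the family between the populations. This entry, ENSAMXG00000042612, had 0, 0 and 2 reads in surface control and 0, 1 and 3 reads in surface starved libraries. In Tinaja it had 70, 70 and 45 reads in control and 81, 103 and 69 reads in starved libraries. Every Tinaja library thus held many reads where the surface libraries held almost none. The ratio of depth-scaled reads was 103 (95% counting interval 28.1 to 858) in control and 69.7 (26.9 to 258) in starved fish, intervals that cover counting error only. Without surface control 3 the surface control group held 0 reads, and Tinaja control ovaries were at least 46.8-fold higher, counting 3 reads over the surface group as the floor. Without surface starved 3 the group held 1 read, and the ratio was 171 (30.4 to 6786). The entry passed the filter on low counts only through its Tinaja libraries, so the ratios are given as a description, with no test.

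The main ddx18 entry, ENSAMXG00000024269, was read at 79.3, 87.8 and 84.2 CPM in surface control and 93.7, 73.9 and 73.1 in surface starved ovaries. In Tinaja ovaries it was 50.3, 53.1 and 77.6 CPM in control and 48.4, 78.0 and 62.8 in starved fish. It held 99.6% to 100% of the summed reads of both entries in surface libraries and 82.2% to 92.2% in Tinaja libraries. Its own difference was -0.47 ± 0.19 (adjusted p = 0.0762) in control and -0.34 ± 0.19 (adjusted p = 0.166) in starved fish, and the first was called without Tinaja control 3 or Tinaja starved 1 (adjusted p = 0.0143 and 0.0458, in that order). Summed over both entries the level was 83.9 ± 4.26 CPM (SD, n = 3) in surface control, 80.4 ± 11.5 in surface starved, 69.3 ± 12.9 in Tinaja control and 74.6 ± 15.9 in Tinaja starved ovaries, and the populations overlapped in both feeding states. In Tinaja control 3, the library with the highest level of the main entry in that group, the summed oocyte markers were 6844 CPM, against 5362 and 5452 in Tinaja control 1 and 2, and the granulosa markers were 29.1 CPM, against 46.0 and 44.9. Their part in the ddx18 values was not tested. The deposited count table lists multimapping reads, those matching more than 1 place, apart from the genes, at 9.91% to 16.8% per library. Reads that match both ddx18 entries equally would stand there, and how many do was not analysed here, so the split between the entries is uncertain. For ddx5, by contrast, the main entry held 97.2% to 98.1% of the summed reads in all libraries, and the second entry was called in none of the 5 comparisons.

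**Figure D4:**
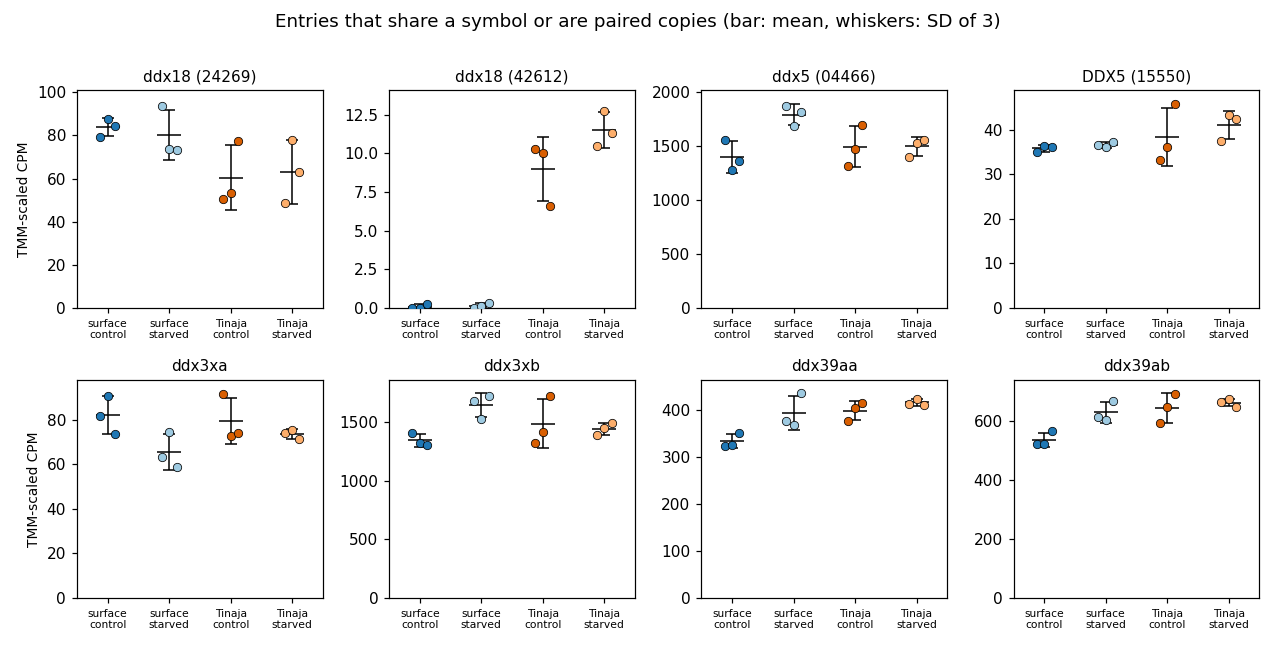
Level in each library, in TMM-scaled CPM (y axes, from 0, different in each panel), of the entries that share the symbols ddx18 and ddx5 (told apart by the last digits of their identifiers) and of the copies of ddx3x and ddx39, with the mean as a bar and the SD of 3 libraries as whiskers. The second ddx18 entry lies at 0 to 0.323 CPM in surface libraries and at 6.59 to 12.8 CPM in Tinaja libraries, while for each of the other entries the ranges of the populations overlap.

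Both entries for helicases of mitochondrial ribosome assembly were called higher in Tinaja starved ovaries, and 1 of them in control fish. The group holds only 2 entries. Of all genes, 40.3% were called in starved fish (20.3% higher) and 32.4% in control fish (16% higher). The gene DHX30 was read at 105, 104 and 94.6 CPM in surface control and 99.5, 94.9 and 114 in surface starved ovaries, and at 135, 126 and 132 and 128, 137 and 132 in Tinaja control and starved ovaries. All Tinaja libraries lay above all surface libraries. The log2 difference was nearly equal in the feeding states, at 0.37 ± 0.08 (adjusted p = 0.00323) in control and 0.37 ± 0.08 (adjusted p = 0.00268) in starved fish, and it held under all 20 alternatives. The gene ddx28 was read at 105, 105 and 97.6 CPM in Tinaja starved and 85.4, 75.2 and 88.4 in surface starved ovaries (0.30 ± 0.07, adjusted p = 0.00695), also under all 20 alternatives, whereas the control groups overlapped (0.04 ± 0.07, adjusted p = 0.690). Its response difference was 0.26 ± 0.10 (adjusted p = 0.278).

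The DNA helicase gene ddx11 was higher in Tinaja ovaries in both feeding states. Its level was 34.1, 34.7 and 30.4 and 32.3, 34.1 and 38.9 CPM in surface control and starved ovaries and 41.0, 45.5 and 50.1 and 45.1, 55.0 and 41.5 CPM in Tinaja control and starved ovaries. The log2 difference was 0.46 ± 0.13 (adjusted p = 0.0148) in control fish, lost without surface control 3 or Tinaja control 3 (adjusted p = 0.0587 and 0.0591, in that order). In starved fish it was 0.43 ± 0.12 (adjusted p = 0.0170), lost without surface starved 1, surface starved 2 or Tinaja starved 2 (adjusted p = 0.0634, 0.0509 and 0.0786, in that order). The gene dhx9, for a helicase that resolves RNA-DNA hybrids, was higher in Tinaja starved ovaries, at 24.1, 28.5 and 34.0 against 20.6, 20.5 and 19.7 CPM (0.51 ± 0.17, adjusted p = 0.0337). That call was lost without surface starved 1, surface starved 2, surface starved 3, Tinaja starved 2 or Tinaja starved 3 (adjusted p = 0.0685, 0.0711, 0.0886, 0.0670 and 0.141, in that order). In Tinaja control ovaries dhx9 was read at 25.2, 25.3 and 16.2 CPM, overlapping surface control at 20.7, 21.8 and 19.3 CPM.

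The viral RNA sensor gene dhx58, which encodes LGP2, was read at under 3 CPM in every library: 0.482, 0.543 and 0.960 in surface control, 0.951, 0.803 and 0.646 in surface starved, 1.47, 2.58 and 0.878 in Tinaja control and 1.68, 2.48 and 0.985 in Tinaja starved ovaries. Its log2 difference between the populations was 1.30 ± 0.56 (adjusted p = 0.0945) in control and 1.11 ± 0.54 (adjusted p = 0.121) in starved fish. The unadjusted p was 0.0382 and 0.0626, and neither value was called. With 4 to 7 reads in each surface library, dhx58 passed the filter on low counts only through its Tinaja libraries. These population values therefore support nothing here.

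Of the 6 entries with other or unassigned roles, 2 were called higher and 2 lower in Tinaja control ovaries, 66.7% of the group beside 32.4% of all genes, and in starved fish 1 was called, 16.7% beside 40.3%. The gene DDX1, for a helicase of the tRNA ligase complex, was higher, at 64.6, 67.9 and 66.9 against 52.2, 47.2 and 55.2 CPM (0.37 ± 0.10, adjusted p = 0.0144), but not without surface control 2 (adjusted p = 0.0614). In surface fish its starved libraries, at 60.4, 67.9 and 67.4 CPM, lay above all controls (0.34 ± 0.10, adjusted p = 0.0715), a difference that DESeq2 called (adjusted p = 0.0363). Its response difference was -0.39 ± 0.14 (adjusted p = 0.238). The gene DHX40 was higher in Tinaja control ovaries, at 27.7, 33.4 and 29.3 against 22.2, 15.7 and 16.0 CPM (0.74 ± 0.23, adjusted p = 0.0297), a call lost without surface control 2, surface control 3, Tinaja control 2 or Tinaja control 3 (adjusted p = 0.101, 0.0974, 0.0924 and 0.0621, in that order). In starved fish it gave 0.39 ± 0.23 (adjusted p = 0.203) and was called without surface starved 1 (adjusted p = 0.0160).

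The gene ddx43, known in mammals from the testis, was lower in Tinaja control ovaries, at 44.7, 39.5 and 51.2 against 62.7, 64.3 and 61.0 CPM (-0.47 ± 0.13, adjusted p = 0.0142), but not without Tinaja control 2 (adjusted p = 0.0592). The entry DHX57 was lower in both feeding states, at 98.6, 99.9 and 97.2 against 119, 124 and 133 CPM in control fish (-0.35 ± 0.06, adjusted p = 0.00116) and at 95.2, 101 and 95.8 against 116, 118 and 119 CPM in starved fish (-0.27 ± 0.06, adjusted p = 0.00433). These calls held under all 20 alternatives. The entries ddx59 and dhx32a were called in none of the 5 comparisons, and ddx59 gave -0.51 ± 0.19 (adjusted p = 0.131) for starvation in surface fish.

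Genes that work with these helicases were described from a list of partners, of which 44 entries were tested. For starvation in surface fish 3 were called higher and 0 lower, 6.82% of the list beside 3.19% of all genes (1.74% higher, 1.45% lower). That share over all genes ran from 0.179% to 5.74% without 1 library. Called were alyref, the TREX adaptor that is handed the message (0.47 ± 0.10, adjusted p = 0.0343), and lsm14ab, of a family that binds DDX6 in storage granules (0.24 ± 0.06, adjusted p = 0.0477). So was cnot1, the scaffold of the deadenylase complex (0.24 ± 0.06, adjusted p = 0.0488). The median log2 value of the list was 0.14, against -0.01 over all genes. In Tinaja cavefish 0 were called for starvation, and 0 for the response difference, beside 0.0205% and 0.0684% of all genes. Between the populations, 4 were called higher and 5 lower in Tinaja control ovaries, and 2 higher and 13 lower in starved fish. These are 20.5% and 34.1% of the list, both below the 32.4% and 40.3% of all genes. The 4 of smallest adjusted p in starved fish were all lower in Tinaja ovaries: the SMN complex gene GEMIN5 (-0.55 ± 0.06, adjusted p = 4.08e-05), cnot1 (-0.44 ± 0.06, adjusted p = 0.000161), the G-patch gene pinx1 (-0.83 ± 0.13, adjusted p = 0.000406) and the THO subunit gene thoc1 (-0.74 ± 0.15, adjusted p = 0.00225). The medians were 0.00 in control and -0.09 in starved fish.

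Of the RNA helicases outside the ddx and dhx names, 21 entries were tested. Starvation in surface fish called 1 higher and 0 lower, 4.76% of the list beside 3.19% of all genes. In Tinaja cavefish 0 were called, beside 0.0205% of all genes. In control fish 3 were called higher and 5 lower in Tinaja ovaries, and in starved fish 2 higher and 6 lower. Either count is 38.1% of the list, beside 32.4% and 40.3% of all genes. By edgeR's quasi-likelihood test of the difference between the populations' starvation responses, 0 of these genes passed, against 0.0684% of all genes. An unadjusted p under 0.05 was found for 6 of the 21, against 15.5% of all genes. The median log2 value of this list was 0.05 for starvation in surface fish and -0.01 in Tinaja cavefish, and between the populations it was -0.05 in control and -0.10 in starved fish. Among the lower ones in both states were aqr, for an intron-binding spliceosomal helicase (-0.66 ± 0.11, adjusted p = 0.000976 in control and -0.78 ± 0.11, adjusted p = 0.000265 in starved fish), and upf1, the helicase of nonsense-mediated decay (-0.33 ± 0.08, adjusted p = 0.0111 and -0.30 ± 0.08, adjusted p = 0.0149). The gene YTHDC2, for a helicase needed in meiosis in mammals, was higher in Tinaja starved ovaries (0.70 ± 0.17, adjusted p = 0.00767).

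Markers of other cell types in the ovary were summed in the same way. Summed smooth muscle markers were 23.7 to 29.8 CPM in surface control and 8.97 to 35.1 in surface starved libraries, against 68.0 to 86.5 and 57.6 to 95.9 in Tinaja control and starved libraries. Of these, myh11a averaged 7.35 and 3.73 CPM in surface control and starved libraries, against 44.4 and 42.5 in Tinaja libraries. By contrast, desma averaged 8.88 and 5.63 CPM against 7.14 and 9.92. Stroma markers summed to 343 to 461, 332 to 417, 362 to 800.4 and 298 to 576 CPM in surface control, surface starved, Tinaja control and Tinaja starved libraries. Most of that sum is fn1a, and the other 8 stroma entries summed to 16.4 to 59.4, 10.2 to 18.6, 42.6 to 265 and 22.2 to 114 CPM in the same order. The median log2 difference of the stroma entries tested was 1.48 in control and 2.02 in starved fish. In the same order, macrophage markers summed to 21.0 to 114, 32.6 to 50.2, 55.8 to 107 and 48.7 to 87.8 CPM, with 1 of 17 entries, an MFAP4 entry, at 0 throughout. The entry of highest mean, csf1ra, averaged 38.5, 35.6, 29.5 and 27.8 CPM in that order and was not called. Its surface control mean rests on surface control 1. There all macrophage markers summed to 114 CPM, against 21.0 and 25.4 in surface control 2 and 3. PTPRC, called higher in both states, averaged 1.11, 1.09, 9.34 and 8.99 CPM. Another MFAP4 entry, called higher in starved Tinaja ovaries, averaged 0.0453 CPM in surface starved and 2.43 in Tinaja starved libraries. It passed the filter on low counts only with its Tinaja libraries. Theca markers, star and cyp17a1, summed to 0.241 to 1.51 and 0.134 to 0.215 CPM in surface control and starved libraries, with star at 0 in the starved ones, against 4.39 to 6.17 and 3.97 to 7.38 CPM in Tinaja control and starved libraries. Vessel markers summed to 2.85 to 4.10 and 1.49 to 3.02 CPM in surface control and starved libraries, against 5.56 to 7.65 and 2.98 to 6.56 CPM in Tinaja libraries. The red blood cell entry, slc4a1a, was at 2.19 to 5.56, 3.34 to 5.09, 2.58 to 5.27 and 1.24 to 1.80 CPM in surface control, surface starved, Tinaja control and Tinaja starved libraries. Granulosa, theca and smooth muscle sums did not overlap between the populations in either state, and vessel sums did not overlap in control fish. In starved fish the stroma sums without fn1a did not overlap and were higher in Tinaja libraries. Oocyte sums and slc4a1a did not overlap there either and were lower in Tinaja libraries. Their part in the helicase differences was not tested.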

How the data were processed

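Per the labels' protocols, directional libraries were made from the total RNA of 12 ovary samples after ribosomal RNA depletion. The authors deposited raw read counts per gene and a scaled signal table. STAR 2.7.10b and RSEM appear in the submitters' processing notes, with no role given. No source used here gives the genome build, annotation or strand setting, so overlapping, antisense and near-identical genes are uncertain. Values of the scaled signal table, as deposited, equal edgeR's TMM-scaled CPM on the 14627 genes kept by filterByExpr (minimum count 10; largest relative difference 4.97e-15), and 100% of them are whole reads within 0.001. For starvation in surface fish the count test called 466 genes on these reads and 466 on the deposited counts. The reads are the same, so this match was fixed in advance. Entries of the count table that name no gene (unmapped reads, 7.28% to 10.1%; multimapping, 9.91% to 16.8%; outside genes, 14.1% to 17.9%; ambiguous, 0.276% to 0.368%) were left out.

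The counts were fitted with edgeR 4.0.16 in R 4.3.3: TMM factors, 1 mean per group, all 12 libraries, robust quasi-likelihood F tests, and Benjamini-Hochberg adjustment over 14627 genes for each of 5 comparisons. The SE is approximate: the absolute log2 value over the root of its F statistic. Residual degrees of freedom were 8, and the median SE of the helicases was 0.107 to 0.109, or 0.153 for the response difference. No libraries were counted as duplicates, since replicates differed by far more than sampling noise. Alternatives were 2 other scalings (median-ratio and upper-quartile), no low-count filter, DESeq2 1.42.0, voom of limma 3.58.1, only the groups compared, the replicate number as a block, each library left out in turn, and, chosen after seeing the data, the recovered reads. Code was tested on simulated data. Members, lists and tests were chosen with earlier results of these data known. Named were all called members, for starvation and response comparisons those of smallest p up to 10, 12 key members, and up to 4 called genes per related list. Values of members beyond that rule were added, after they were seen, so that every entry is accounted for. Levels per transcript length were not computed, and no sequences were used here. The values of 1 called gene of a related list are not reported here.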

Additional observations from a re-analysis of the deposited data

How the results depend on the processing

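Over 50 members and 5 comparisons, 20 of the 37 called differences were called under every alternative run, both of the second ddx18 entry among them. Of the 213 that were not called, 194 were called under no alternative, 19 under at least 1, and 70 changed sign under at least 1. None of the called differences changed sign. The counts of called members between the populations stayed within 1.5 times under all alternatives that keep every library. Without 1 library each, members called higher ranged from 6 to 10 and lower from 6 to 9 in control fish, and higher from 6 to 11 and lower from 7 to 11 in starved fish. Over the same fits, 24.7% to 32.4% of all genes were called in control fish and 31.5% to 40.3% in starved fish, either direction. For starvation in surface fish, where 0 members were called higher and 1 lower, DESeq2 called 6 higher and 3 lower, and the fit of only the groups compared called 0 lower. Leaving out 1 library gave 0 to 4 higher and 0 to 1 lower, beside 0.179% to 5.74% of all genes in either direction. For starvation in Tinaja cavefish and for the response difference the ranges of members called were 0 to 0. Over all genes, starvation in surface fish called 466, against 1301 by DESeq2, 141 with only the groups compared and 80 with the replicate block. It was 30 without surface control 2, 27 without surface control 3, 155, 181 and 92 without surface starved 1, 2 and 3, 234 without Tinaja control 2, 864 without Tinaja control 3, 263 without Tinaja starved 1 and 189 without Tinaja starved 3. Starvation in Tinaja cavefish called 3, against 18 by DESeq2, 1 by voom, 0 with only the groups compared and 3 to 34 without 1 library, and the response difference called 10, against 270 by DESeq2 and 8 to 49 without 1 library. The cause was not tested. DESeq2 gave an adjusted p for 49 of the 50 members (not dhx58) for starvation in surface fish and for 44 in the response difference.

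The labels state no pairing by replicate number. Same-numbered libraries of different groups gave 18 correlations over all genes tested, after each group's mean was removed. They ran from -0.311 to 0.0826, and 0 were above 0.1. With 3 libraries per group, these values cannot exclude that same-numbered samples share an origin or handling. With the replicate number as a block, 0 members were called lower for starvation in surface fish, and the calls on ddx54 (adjusted p = 0.0525), on ddx52 (0.0737) and on dhx9 (0.0507), the last 2 between starved populations, were lost, while ddx27 was called between starved populations (0.0235). Depth limits the second ddx18 entry, which had few reads in surface libraries, and dhx58, which had only 4 to 20 reads in any library.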

Other observations

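One more entry of the family, DHX32 (ENSAMXG00000011764), stands in the count table but not among the genes tested, because its reads were too few. It had 4, 4 and 5 reads in surface control, 2, 3 and 2 in surface starved, 1, 1 and 1 in Tinaja control and 3, 2 and 6 in Tinaja starved libraries, 34 in all. Summed over the 50 tested entries, the helicases reached 7480, 7267 and 7402 CPM in surface control and 8327, 8088 and 8467 in surface starved ovaries, so that the starved sums lay above all control sums. In Tinaja ovaries the sums were 7210, 7555 and 8099 CPM in control and 7509, 7902 and 7711 in starved fish, and these overlapped. The main ddx5 entry and ddx3xb make up a large part of these sums: their levels in surface starved ovaries were 1790.5 ± 98.4 and 1643 ± 102 CPM (mean ± SD, n = 3), against 1398 ± 144 and 1344 ± 52.9 CPM in surface control ovaries.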
